A study of Rattus norvegicus with 10 samples.

Results

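The genes described are the ligands, receptors and Smads of the transforming growth factor-beta (TGF-beta) superfamily that could be matched by symbol on the array. These were all spotted RefSeq accessions of rat genes whose symbol starts with Tgfb, Bmp, Acvr, Inh or Smad. There were 11 such genes among 4803 spotted accessions, of which 1177 could be given a symbol and 3626 could not. The current rat annotation lists 46 protein-coding genes with these prefixes. The 11 genes were 5 ligands (Bmp2, Bmp3, Bmp4, Inha and Inhba), 2 receptors (Tgfbr1 and Tgfbr3) and 4 Smads (Smad1, Smad2, Smad3 and Smad4), and 0 symbols starting with Acvr were matched.

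Ligands of this superfamily are secreted as dimers and bind a complex of type I and type II receptor kinases at the cell surface. The activated type I receptor phosphorylates receptor-regulated Smads, which pair with Smad4 and enter the nucleus to regulate transcription. Smad1 mainly carries signals of the bone morphogenetic proteins (BMPs), and Smad2 and Smad3 those of TGF-beta and activin. Bone matrix stores both TGF-beta and BMPs, and both act on osteoblasts and osteoclasts during bone formation and remodelling.

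Gene expression was measured in the tibial shaft of female Wistar rats, 12 weeks old, with 1 array per rat and both tibiae of that rat on the array. In the LOAD group (n = 5) the right tibia was bent between offset pads for 300 cycles at 2 Hz with a peak setting of 60 N, and in the SHAM group (n = 5) it was squeezed between opposed pads, so that the LOAD tibiae were bent and squeezed and the SHAM tibiae only squeezed. The left tibia was the contra lateral control in both groups, and RNA was isolated 6 hours after the single session. The shaft holds osteocytes together with other cells of bone, so that fewer cells of a type and less RNA per cell cannot be told apart.

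The treated tibia carried Cy3 on 3 arrays and Cy5 on 2 arrays in each group, and the 4 scan batches each held arrays of both groups. Between 52.4% and 81.6% of spots per array had a probability of carrying signal (P ON) of at least 0.5 in both channels. Array LOAD 4 was the lowest and had 166 spots of low confidence, against 32 to 68 on the arrays of SHAM. One label field calls SHAM 1 a LOAD sample, but its title and the channel entries of its file say sham. The tibia numbers in the files were consecutive on 8 arrays and not on LOAD 4 and SHAM 4. After normalization, array LOAD 2 correlated at r = -0.33 with SHAM 2, -0.32 with LOAD 5 and -0.14 with SHAM 4 over all genes, the other arrays with the treated tibia in Cy5. Its dyes were kept as labelled. The 5 bone markers matched by symbol, Ibsp, Sparc, Spp1, Phex and Pdpn, had a P ON of at least 0.5 in all 20 channels. Mepe, which the study reported as up-regulated by loading, was listed as a bone marker but not matched to a symbol. Of 9 skeletal muscle markers, 9 had a lower mean ratio in LOAD, 7 of them at an unadjusted p under 0.05 in limma. Over all genes, 2496 of 4707 were lower in LOAD and 3.34% had an unadjusted p under 0.05. None of the 9 markers passed a false discovery rate of 20%. For the 8 with a value on every array, levels were summed on the linear scale and the log2 of the sum was taken. It ran from 12.97 to 13.32 in the LOAD tibiae and from 13.08 to 14.06 in their controls. In the SHAM tibiae it ran from 13.15 to 13.63 and in their controls from 13.04 to 13.39. None of these markers was undetected in all channels. The same sum over 4 blood and marrow markers ran from 13.55 to 15.91 in the LOAD tibiae and from 13.7 to 15.7 in their controls. In the SHAM tibiae the blood and marrow sum ran from 14.83 to 15.46 and in their controls from 14.99 to 15.38. The parts of muscle RNA and of blood and marrow RNA in the results below were not tested.

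Signal was found for all 11 genes, but not in all tibiae. Bmp4, Smad1, Smad3 and Smad4 had a P ON of at least 0.5 in all 20 channels, 4 of 11 genes beside 50.6% of all genes tested. In at least 15 channels the count was 10 of 11, beside 66.5% of all genes. Bmp2 reached that level in 19 channels, Inha and Smad2 in 18, Bmp3 in 17, and Tgfbr1 and Tgfbr3 in 15. Inhba, the beta A subunit that forms activin A, reached it in only 6 channels, 2 of LOAD and 4 of SHAM.

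**Figure D1:**
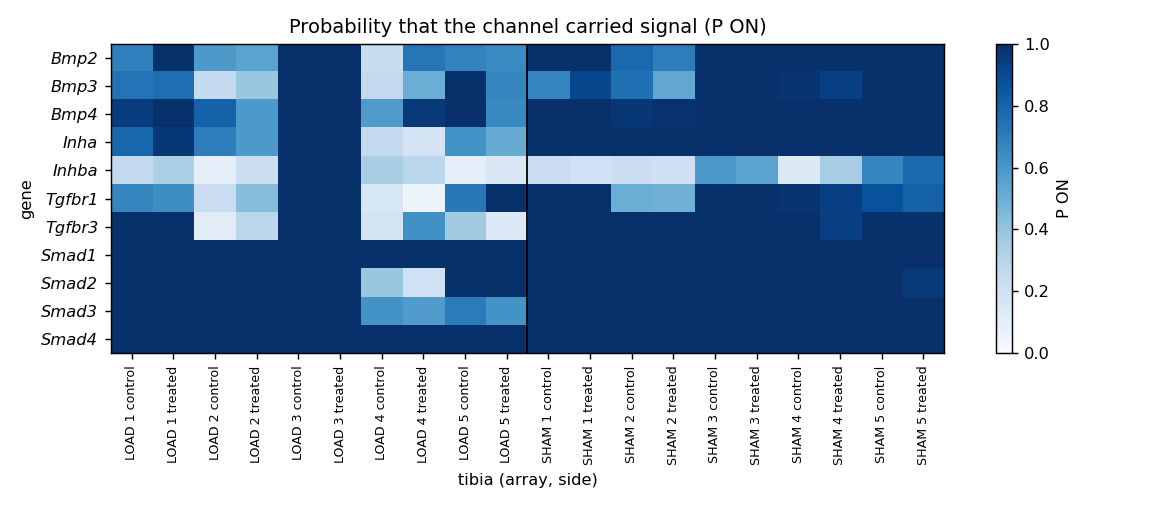
Probability (P ON, colour from 0 to 1) that each of 20 channels carried signal for the 11 genes (rows), with control and treated tibia of each array side by side and LOAD left of the line. Smad1 and Smad4 are dark throughout, Inhba is pale in most channels, and the pale cells of Tgfbr3 lie on LOAD 2, LOAD 4 and LOAD 5.

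The missing signals lay mostly on LOAD arrays. Tgfbr3, which encodes betaglycan, the co-receptor that presents TGF-beta to its signalling receptors, had a P ON of at least 0.5 in 5 of 10 channels in LOAD and in 10 of 10 in SHAM. On LOAD 4 only 4 of the 11 genes had signal in both channels, on LOAD 2 there were 7 and on LOAD 5 there were 9. The remaining arrays had 9 to 11. Over all spots the share with signal in both channels had a median of 63.6% in LOAD and 73.6% in SHAM, and its part in the counts for Tgfbr3 was not tested.

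Whether bending, beyond squeezing, changed these genes was addressed by the ratio of each treated tibia to its contra lateral control. At a false discovery rate of 20% the test was passed by 0 of the 11 genes in LOAD, in SHAM and between the groups, beside 0 of the 4707 genes tested (0%; limma, adjusted p = 1 for each of the 11 genes in LOAD and SHAM). At this rate the study itself reported differentially expressed genes in LOAD and none in SHAM, in a smaller set left after its spot filtering. At an unadjusted p under 0.05, 0 of the 11 were found in LOAD beside 3.34% of all genes, 0 in SHAM beside 0.68%, and 0 between LOAD and SHAM beside 1.49%. The mean log2 ratios lay between -0.16 and 0.19 in LOAD, which are folds of 0.894 to 1.14, and between -0.27 and 0.13 in SHAM, folds of 0.827 to 1.09. In LOAD the SD over the 5 rats was larger than the size of the mean for all 11 genes, and in SHAM for 10 of them.

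**Figure D2:**
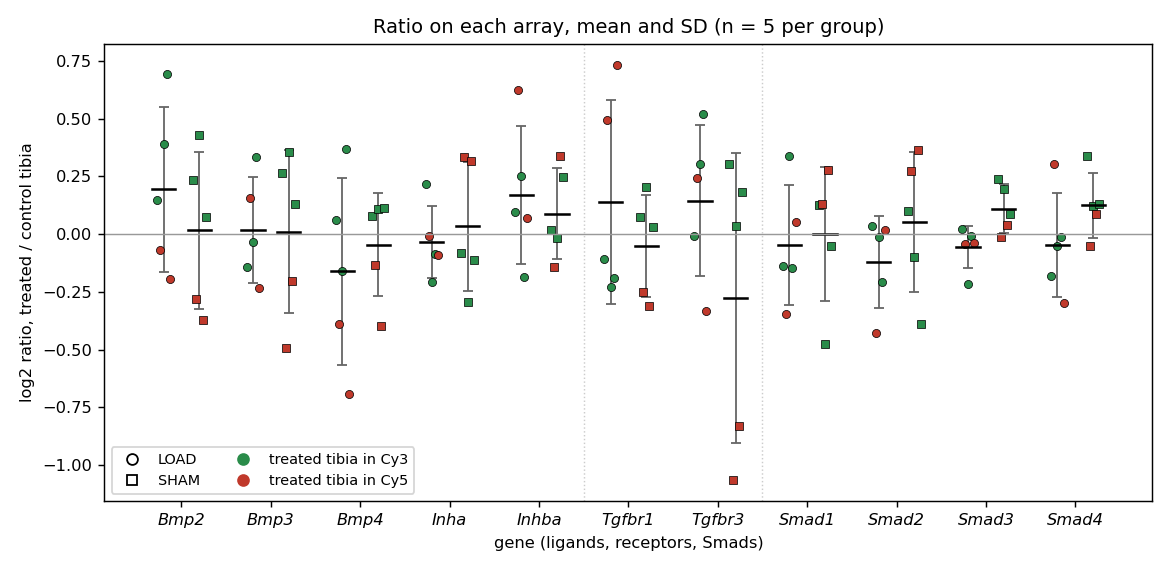
Log2 ratio of treated to contra lateral control tibia for each gene, with circles for the 5 LOAD arrays, squares for the 5 SHAM arrays, a black bar for the mean and a grey bar for the SD. Points are green where the treated tibia carried Cy3 and red where it carried Cy5. For each of the 11 genes the LOAD and SHAM points overlap, and for Bmp2 all green points lie above 0 and all red points below.

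Among the ligands, Bmp2, an inducer of osteoblast differentiation, had log2 ratios of 0.15, -0.07, 0.39, 0.70 and -0.20 on LOAD 1 to 5. In the SHAM tibiae they were 0.24, -0.28, 0.43, -0.37 and 0.07. The arrays of both groups spread from clearly negative to clearly positive and overlapped over most of that span. The mean was 0.19 ± 0.36 (SD, n = 5) in LOAD and 0.02 ± 0.34 in SHAM, with a difference of 0.18 (standard error 0.20, 95% interval -0.26 to 0.61). A true difference of up to 1.53-fold thus lay within the interval.

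Bmp3, a BMP that restrains bone formation in mice, had ratios of -0.14, 0.16, -0.03, 0.34 and -0.23 on LOAD 1 to 5. On SHAM 1 to 5 they were 0.26, -0.49, 0.36, -0.20 and 0.13. Both groups centred on 0, with means of 0.02 ± 0.23 and 0.01 ± 0.35, and the difference of 0.01 had an interval of -0.38 to 0.39.

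For Bmp4, a ligand of the same branch as Bmp2, the LOAD ratios were 0.06, -0.39, -0.16, 0.37 and -0.69, and the SHAM ratios were 0.08, -0.13, 0.11, -0.40 and 0.12. LOAD 5 held the lowest value and LOAD 4 the highest, so that the SHAM range lay inside that of LOAD. The means were -0.16 ± 0.41 and -0.05 ± 0.22, and their difference was -0.12 (standard error 0.19, 95% interval -0.53 to 0.30).

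Inha encodes the inhibin alpha subunit, which turns an activin beta chain into an inhibin, an antagonist of activin. Its ratios were 0.22, -0.01, -0.21, -0.09 and -0.09 on LOAD 1 to 5 and -0.08, 0.34, -0.29, 0.32 and -0.11 on SHAM 1 to 5. SHAM 2 and SHAM 4 stood above the rest of their group, and LOAD values fell between the extremes of SHAM. The means of -0.03 ± 0.16 and 0.03 ± 0.28 differed by -0.07 (95% interval -0.38 to 0.24).

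Inhba gave 0.09, 0.62, 0.25, -0.19 and 0.07 in LOAD and 0.02, -0.14, -0.02, 0.34 and 0.25 in SHAM. LOAD 2 held the highest ratio and had a P ON under 0.5 in both channels. The ratio was positive on 4 of 5 LOAD arrays and the LOAD mean of 0.17 ± 0.30 had the lowest unadjusted p of the 11 genes in LOAD, with an adjusted p = 1 in limma. Only 1 of 5 treated and 1 of 5 control tibiae of LOAD, and 2 of 5 each of SHAM, carried signal at a P ON of at least 0.5, so that most of these ratios compare spots near background.

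Of the receptors, Tgfbr1, the type I receptor kinase of TGF-beta, had ratios of -0.11, 0.49, -0.23, -0.19 and 0.73 on LOAD 1 to 5. SHAM 1 to 5 gave 0.07, -0.25, 0.20, -0.31 and 0.03. LOAD 2 and LOAD 5, the arrays with the treated tibia in Cy5, were far above the other 3 LOAD arrays, and in SHAM the Cy5 arrays were the lowest. The mean was 0.14 ± 0.44 in LOAD and -0.05 ± 0.22 in SHAM, and the difference of 0.19 (standard error 0.20) had an interval of -0.25 to 0.63. Without LOAD 5 the LOAD mean of Tgfbr1 was -0.01, and with the dyes of LOAD 2 exchanged it was -0.06. Without SHAM 4 its SHAM mean was 0.02.

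Tgfbr3 had the largest difference between the groups of the 11 genes. Its LOAD ratios were -0.01, 0.24, 0.30, 0.52 and -0.33, and its SHAM ratios were 0.30, -1.07, 0.04, -0.83 and 0.18. SHAM 2 and SHAM 4, the SHAM arrays with the treated tibia in Cy5, lay far below all other arrays. The other 3 SHAM arrays lay inside the LOAD range. The mean was 0.14 ± 0.33 in LOAD and -0.27 ± 0.63 in SHAM, a difference of 0.42 (standard error 0.27, 95% interval -0.18 to 1.02, limma, adjusted p = 0.999). That is 1.34-fold, with an interval of 0.883 to 2.02. The difference was 0.22 without SHAM 2, 0.28 without SHAM 4 and 0.19 without both arrays numbered 4. Each of these fits also left the dyes unequally spread over the groups. Within scan batches 1 to 4 the difference was 0.50, 0.27, 1.35 and -0.52, with the sign turned in batch 4. Batches 2, 3 and 4 held 1 LOAD and 1 SHAM array each. In batches 3 and 4 these carried the treated tibia in different dyes, so that group and dye cannot be told apart there.

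Both receptors thus had a mean ratio above 0 in LOAD and below 0 in SHAM, with neither past the test. Without normalization the LOAD means were -0.02 for Tgfbr1 and 0.002 for Tgfbr3, where the median of all genes was -0.23. With median centring the LOAD means of Tgfbr1 and Tgfbr3 were 0.18 and 0.20. The 5 ligands had no common direction, with 3 means higher and 2 lower in LOAD, and 4 higher and 1 lower in SHAM. The median log2 ratio in LOAD was 0.02 for the ligands and 0.14 for the receptors. In SHAM the same medians were 0.02 and -0.16. The SHAM median of the receptors rests on Tgfbr3.

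The 4 Smads had means below 0 in LOAD (median -0.05) and above 0 in SHAM (median 0.08), with a median difference of -0.17. Single arrays, when left out, turned the sign of Smad1 in both groups, of Smad2 in SHAM and of Smad4 in LOAD. The LOAD mean was 0.03 without LOAD 2 for Smad1 and 0.02 without LOAD 5 for Smad4. The SHAM mean of Smad1 was -0.03 without SHAM 1 or SHAM 2 and -0.07 without SHAM 4, and that of Smad2 was -0.005 without SHAM 2 and -0.03 without SHAM 4. Without normalization the median of all genes was -0.23 in LOAD and -0.42 in SHAM, and all 4 Smads were below 0 in both groups, at -0.35 to -0.28 and -0.41 to -0.31. With loess the medians of all 4707 genes in LOAD, in SHAM and for the difference were -0.01, 0.003 and -0.01, and 47.0% and 51.2% of genes had a higher mean in LOAD and in SHAM. With the dyes of LOAD 2 exchanged the LOAD means of Smad1 and Smad2 were 0.09 and 0.05. No Smad passed the test, and the groups overlapped for each.

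Smad1 had ratios of -0.14, -0.35, 0.34, -0.15 and 0.05 in LOAD and 0.13, 0.13, -0.47, 0.28 and -0.05 in SHAM. LOAD 3 was the highest array and SHAM 3, scanned in the same batch, the lowest. The means were -0.05 ± 0.26 and 0.001 ± 0.29, and the difference was -0.05 (95% interval -0.41 to 0.31).

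For Smad2 the LOAD arrays gave 0.03, -0.43, -0.01, -0.21 and 0.02, and the SHAM arrays gave 0.10, 0.27, -0.10, 0.37 and -0.39. SHAM 5 was nearly as low as LOAD 2, the lowest. The means of -0.12 ± 0.20 and 0.05 ± 0.30 differed by -0.17 (standard error 0.16, 95% interval -0.51 to 0.17).

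Smad3 varied least among the 11 genes, with an SD of 0.09 in LOAD and 0.11 in SHAM. Its ratios were 0.02, -0.04, -0.21, -0.01 and -0.04 on LOAD 1 to 5 and 0.24, -0.01, 0.20, 0.04 and 0.09 on SHAM 1 to 5. The LOAD values lay low on 4 of 5 arrays and the SHAM values high on 4 of 5, and they met at SHAM 2, which was lower than LOAD 1 and LOAD 4. The difference was -0.17 (standard error 0.10, 95% interval -0.38 to 0.04, limma, adjusted p = 0.999), or 0.891-fold. It was -0.12, -0.41, -0.05 and -0.13 within the 4 scan batches.

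Smad4, the common partner of the other Smads, gave -0.18, 0.31, -0.05, -0.01 and -0.30 in LOAD and 0.34, -0.05, 0.12, 0.09 and 0.13 in SHAM. LOAD 2 and SHAM 1 were the high arrays, and 4 of 5 LOAD arrays were negative while 4 of 5 SHAM arrays were positive. The means of -0.05 ± 0.23 and 0.13 ± 0.14 differed by -0.17 (standard error 0.13, 95% interval -0.45 to 0.11, limma, adjusted p = 0.999), and the values by scan batch were -0.08, -0.18, -0.10 and -0.43. The difference had 1 sign in all 4 batches for 2 of the 11 genes, Smad3 and Smad4, beside 7.16% of the 4472 genes that lacked no value. Batches 2, 3 and 4 held only 1 array of each group, with different dyes on the treated tibiae in batches 3 and 4. Without normalization the Smad3 difference was 0.04 and that of Smad4 was -0.004, where the median difference of all genes was 0.19. With median centring the differences of Smad3 and Smad4 were -0.19 and -0.23.

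No gene of the 11 had the same sign on all 5 arrays of a group. Over all genes, 1.95% were higher and 1.87% lower on every LOAD array, and 1.49% and 1.66% on every SHAM array. The ratios of LOAD and SHAM overlapped for each of the 11 genes, beside 0.276% of all genes without overlap.

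The ratios of the BMP ligands and of Tgfbr3 differed by the dye of the treated tibia. Bmp2 was positive on 6 of 6 arrays with the treated tibia in Cy3, at 0.33 ± 0.23, and negative on 4 of 4 arrays with it in Cy5, at -0.23 ± 0.13. For Bmp4 the means were 0.10 ± 0.17 and -0.40 ± 0.23, with 4 of 4 Cy5 arrays negative. Tgfbr3 averaged 0.22 ± 0.20 with Cy3 and -0.50 ± 0.58 with Cy5, and Bmp3 0.15 ± 0.20 and -0.19 ± 0.27. Bmp2 was the only gene of the 11 whose Cy3 and Cy5 arrays did not overlap, where 2.25% of all genes were higher on every Cy3 array and 1.4% lower.

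**Figure D3:**
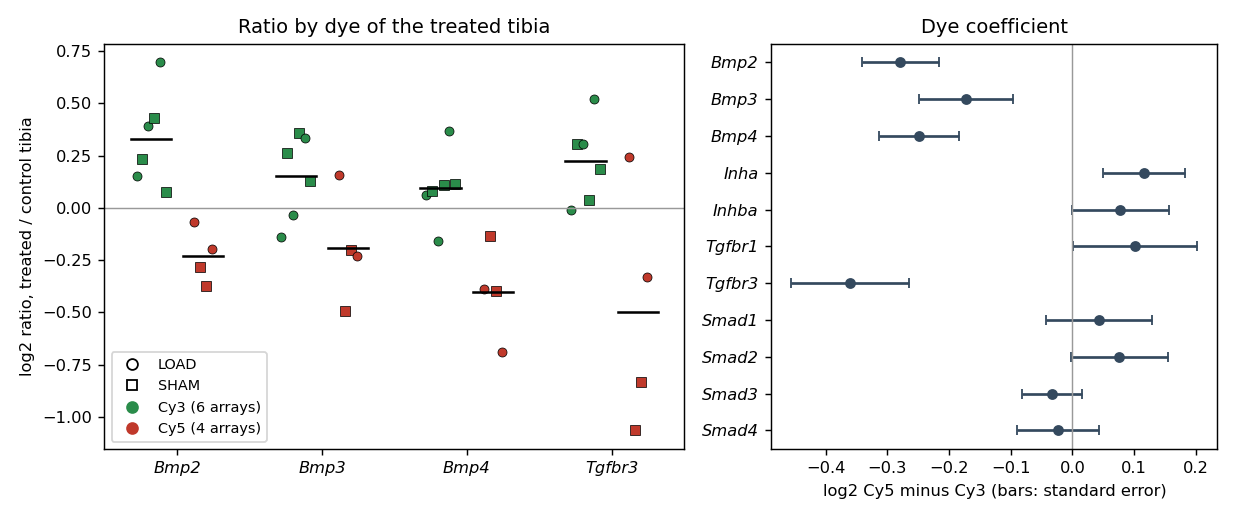
Left, log2 ratio of treated to control tibia for 4 genes on the 6 arrays with the treated tibia in Cy3 (green) and the 4 with it in Cy5 (red), with circles for LOAD, squares for SHAM and a bar for the mean. Right, the dye coefficient of each gene, the log2 signal of Cy5 minus Cy3 in the limma fit, with its standard error. Bmp2, Bmp3, Bmp4 and Tgfbr3 lie below 0, down to -0.36, and the other 7 genes lie near 0 or above it.

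In the fit with dye orientation as a term, the dye coefficient is the log2 signal of Cy5 minus Cy3, and its test for each gene was chosen after these values were seen. At a false discovery rate of 20% in limma, 3 of the 11 genes passed beside 1.83% of all genes (86 of 4707). They were Tgfbr3 at -0.36 (standard error 0.10, adjusted p = 0.189), Bmp2 at -0.28 (standard error 0.06, adjusted p = 0.171) and Bmp4 at -0.25 (standard error 0.07, adjusted p = 0.186). Bmp3 was at -0.17 (unadjusted p = 0.0458), and with it 4 of 11 genes had an unadjusted p under 0.05 beside 13.3% of all genes. The coefficients of the 4 Smads lay between -0.03 and 0.08.

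These calls depended on single arrays, while the coefficients moved less. With 1 array left out at a time, Bmp2 stayed between -0.31 and -0.25 and was called in 3 of 10 such fits. Bmp4 lay between -0.29 and -0.20 and was called in 2, and Tgfbr3 lay between -0.46 and -0.29 and was called in 3. The count over all genes was 7 without SHAM 4 and 1347 (28.6% of genes) without LOAD 2, where 5 of the 11 genes were called. Without LOAD 3, 3 of the 11 were called beside 6.08% of all genes, and without LOAD 1 there were 2 beside 0.701%. The number of the 11 genes called was 0 without SHAM 1, SHAM 2, SHAM 3, SHAM 4, SHAM 5, LOAD 4 or LOAD 5, each in turn, beside 0.149% to 0.531% of all genes.

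With the dye term in the fit, Bmp4 had a LOAD ratio of -0.21 (standard error 0.09, unadjusted p = 0.0413 in limma, adjusted p = 0.999), the only one of the 11 at an unadjusted p under 0.05 beside 3.76% of all genes. Tgfbr3 had a SHAM ratio of -0.35 (standard error 0.13, unadjusted p = 0.0246, beside 0.977% of all genes) and a difference between LOAD and SHAM of 0.42 (standard error 0.19, unadjusted p = 0.046, beside 1.78%). None of these passed a false discovery rate of 20%. Since each group held 3 Cy3 and 2 Cy5 arrays, the difference of Tgfbr3 itself was the same with and without the dye term.

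Several ratios moved together across the 10 arrays, which share dye orientation and batches between genes. Tgfbr3 correlated with Bmp3 at r = 0.84 and with Bmp2 at r = 0.82, and Bmp2 with Bmp3 and with Bmp4 at r = 0.76 (n = 10 arrays each). With the mean of each dye orientation taken off, these became 0.71, 0.57, 0.55 and 0.22. Smad1 and Smad2 correlated at 0.63 and kept 0.62. Inha ran opposite to Tgfbr3 and Bmp3, with r = -0.75 and -0.74, and Smad2 opposite to Tgfbr3 with -0.73. With the dye means taken off these were -0.60, -0.60 and -0.77. Of 55 pairs, 9 had an r above 0.5 and 8 had an r below -0.5, with a median of -0.01.

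The levels of the contra lateral control tibiae of both groups were compared by single channel analysis, to see whether the untreated legs differed. At a false discovery rate of 20%, 0 of the 11 genes and 0 of 4472 genes in all (0%) were called. The study reported genes lower in the LOAD controls at this rate, Phex among them, in a smaller set of spots. At an unadjusted p under 0.05 there was 1 of the 11, Tgfbr3, beside 4.92% of all genes. Its log2 level in the controls was 7.71, 6.52, 7.89, 7.37 and 7.42 on LOAD 1 to 5 and 7.59, 8.64, 8.47, 8.35 and 7.89 on SHAM 1 to 5. LOAD 2 was the lowest tibia, and the groups overlapped between SHAM 1 and LOAD 3. The control level was lower in LOAD by a log2 difference of -0.81 (standard error 0.28, 0.572-fold, unadjusted p = 0.00933 in limma, adjusted p = 0.856). Without LOAD 2 the difference was -0.53, and its unadjusted p lay between 0.00382 and 0.0343 with each array left out in turn.

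In the treated tibiae Tgfbr3 had log2 levels of 7.70, 6.76, 8.19, 7.89 and 7.08 in LOAD and 7.89, 7.57, 8.51, 7.51 and 8.07 in SHAM. LOAD 2 was again the lowest. The difference was -0.39 (standard error 0.28, limma, adjusted p = 0.952). Between the treated tibiae 0 of the 11 genes had an unadjusted p under 0.05 beside 4.58% of all genes, and the groups overlapped for each of the 11 beside 0.671% of all genes without overlap. The mean levels of the treated and control tibiae were 7.52 ± 0.59 and 7.38 ± 0.53 in LOAD and 7.91 ± 0.41 and 8.19 ± 0.44 in SHAM. Of the LOAD controls 2 of 5 had a P ON of at least 0.5, and of the SHAM controls 5 of 5.

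**Figure D4:**
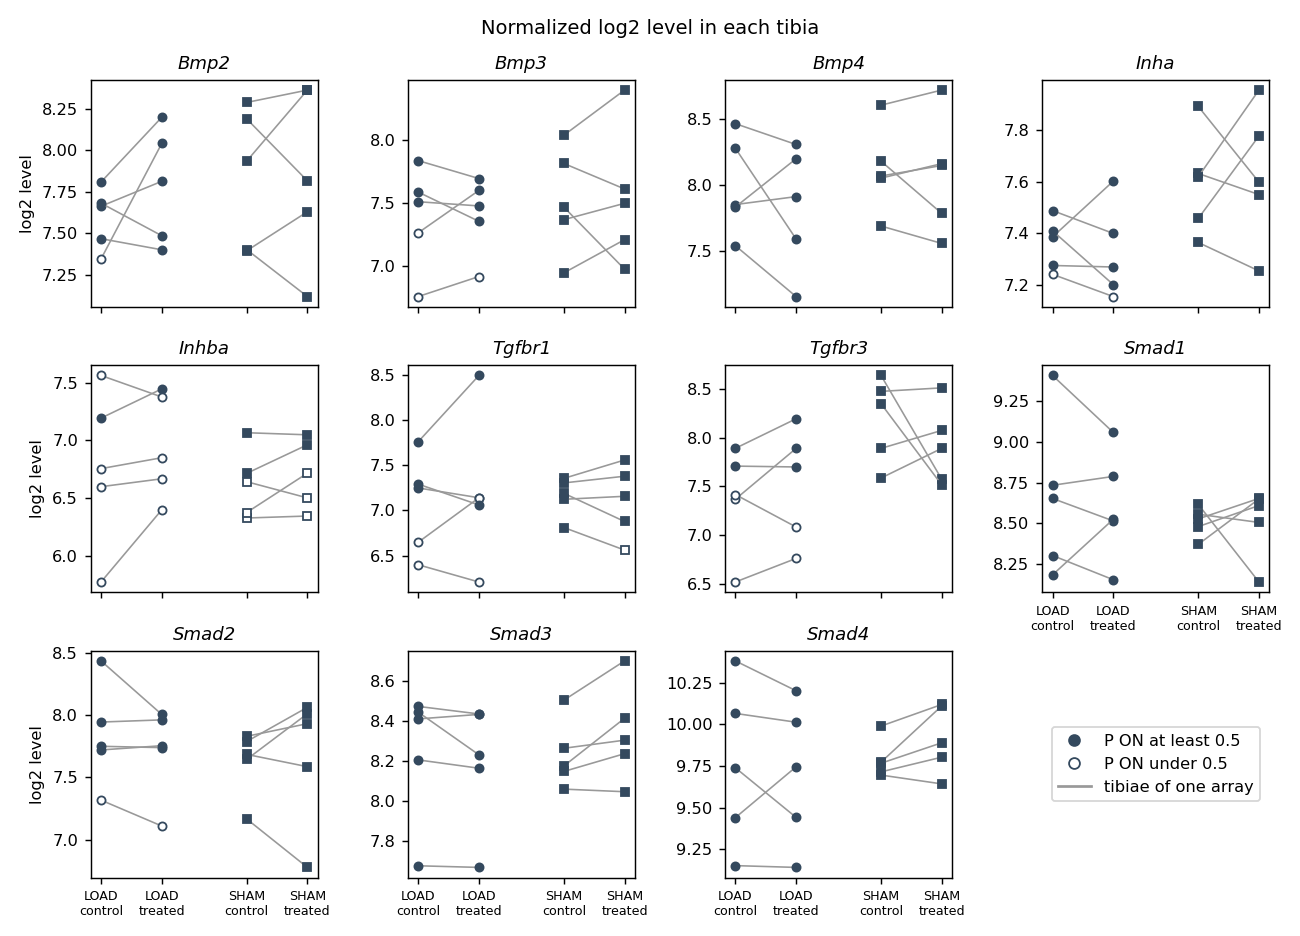
Normalized log2 level of each gene in the control and treated tibia of each array, joined by a line, with circles for LOAD, squares for SHAM and open symbols where P ON was under 0.5. Each panel has its own scale. The SHAM controls of Tgfbr3, at 7.59 to 8.64, lie mostly above the LOAD controls, at 6.52 to 7.89.

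The other 10 genes differed between the contra lateral controls by -0.25 to 0.21 on the log2 scale. Bmp2 was at -0.25 (standard error 0.21), Inha at -0.23 (standard error 0.16) and Smad2 at 0.21 (standard error 0.24). Smad3 and Smad4 were at 0.01 and -0.03, with standard errors of 0.16 and 0.21. The controls of LOAD and SHAM overlapped for each of the 11 genes, beside 0.984% of all genes without overlap.

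The levels also varied from array to array. For 8 of 11 genes the SD of the level between rats, averaged over both tibiae, was larger than the SD of the log2 ratio, beside 73% of 4472 genes. Since each rat was on an array of its own, differences between rats and between arrays cannot be told apart. Tgfbr3 spanned 1.85 log2 units between LOAD 2 and SHAM 3, and Tgfbr1 spanned 1.82 between LOAD 4 and LOAD 5. LOAD 4 was the lowest rat for Smad1, Smad3, Smad4, Inha and Tgfbr1, while LOAD 2 was the lowest for Bmp3, Bmp4, Inhba and Tgfbr3 and the highest for Smad1 and Smad2. The narrowest span was that of Inha, at 0.59.

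Of 119 further genes listed for the pathway, 24 were matched by symbol and tested, and 19 of these had a P ON of at least 0.5 in at least 15 channels. Listed genes spotted under an accession without a symbol could not be found in this way. None had an unadjusted p under 0.05 in LOAD, in SHAM, between LOAD and SHAM, or between the contra lateral controls. Over all genes the shares were 3.34%, 0.68%, 1.49% and 4.92%, so that none of 24 lies near these shares. None of the 24 passed a false discovery rate of 20%. In LOAD 14 were higher and 10 lower, with a median of 0.01, and in SHAM the counts were the same, with a median of 0.04. The dye coefficient had an unadjusted p under 0.05 for 5 of the 24, beside the 13.3% of all genes given above, and was negative for 3 (Bgn, Sp1 and Timp3) and positive for the other two, Fst at 0.18 (unadjusted p = 0.0301) and A2m at 0.14 (unadjusted p = 0.0337).

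Among the 5 extracellular regulators (A2m, Fst, Bgn, Grem1 and Furin), Fst, encoding follistatin, which binds activin, had a LOAD ratio of -0.23 ± 0.38 and signal in 8 channels. Grem1, a BMP antagonist, had -0.12 ± 0.24 in LOAD and -0.22 ± 0.41 in SHAM. Furin, a protease that cleaves ligand precursors, had -0.08 ± 0.17 and 0.08 ± 0.53. Bgn, encoding the matrix proteoglycan biglycan, spread widest, with an SD of 0.75 in LOAD, and had a dye coefficient of -0.46 (unadjusted p = 0.006).

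Of other ligands, Gdf15 had 0.19 ± 0.41 in LOAD and 0.31 ± 0.38 in SHAM, and Mstn, encoding myostatin, a ligand made mainly by skeletal muscle, had a P ON of at least 0.5 in 0 of 20 channels. Among nuclear factors, Sp1 had a dye coefficient of -0.47 (unadjusted p = 0.00598), and Runx1, a relative of the osteoblast factor Runx2, had a LOAD ratio of -0.07 ± 0.33. Atf3, Ppm1a, a phosphatase that acts on Smads, and Mapk3 had LOAD means between -0.02 and 0.05.

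The 12 target genes held no ratio past the test either. The inhibitors of differentiation Id1, Id2 and Id3, which BMP signalling induces in many cells, had LOAD means of -0.01 ± 0.26, 0.09 ± 1.08 and 0.07 ± 0.80. Id2 was at 1.15 on LOAD 2, 0.84 on LOAD 4 and -1.63 on LOAD 5, and between 0.00 and 0.09 on the other 2 LOAD arrays. The homeobox genes Dlx5 and Msx2 had -0.09 ± 0.27 and -0.08 ± 0.12. Ibsp, the bone sialoprotein gene, had 0.30 ± 0.95 and Timp3, a protease inhibitor, 0.20 ± 0.46, with a dye coefficient of -0.36 (unadjusted p = 0.0444). Fn1, Sparc, Spp1 and Myc had LOAD means between 0.004 and 0.11, with SDs of 0.63, 1.22, 0.55 and 0.12. Sparc was at 1.16 on LOAD 2, 1.00 on LOAD 4 and -1.89 on LOAD 5. Like Id2 and Sparc, the genes Id3, Ibsp, Fn1 and Timp3 were highest on LOAD 2 and LOAD 4 and lowest on LOAD 5. The same did not hold for Id1, Dlx5, Msx2, Spp1 or Myc.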

How the data were processed

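Array images had been processed by the authors in BlueFuse. The deposited files hold an intensity per channel, not normalized, and, as a fraction, a confidence per spot and P ON, the probability of signal in a channel; duplicate spots had been combined. The deposited log2 ratios equal the log2 ratios of those intensities, and intensities were used. By the study's methods a spotted oligonucleotide can also bind another transcript.

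Values of confidence below 0.11 were discarded. Loess (span 0.3, 4 iterations) was applied to the log2 ratios of each array separately. At most 1 missing value was allowed per gene, which removed 96 genes and left 4707. The 11 genes had a value on every array. Means of LOAD and SHAM were fitted in limma 3.58.1 (R 4.3.3), with Benjamini-Hochberg adjustment over all genes. For the controls, limma's single channel analysis followed Aquantile normalization, over 4472 complete genes. Replicates were different rats. Symbols came from RefSeq accessions. The array number limits the precision. All 11 genes are named, with values on every array for those with P ON of at least 0.5 in 15 of 20 channels or with the lowest p, and from each list up to 3 genes with the lowest p. A few more genes of the lists were named after their values were seen. The values of 1 listed target gene are not reported here. The genes and lists were chosen with earlier results of these data known. Alternatives changed normalization, filters, dye and batch terms and arrays. The authors' spots flagged by eye and the duplicate spots were not analysed here.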

Additional observations from a re-analysis of the deposited data

Results flagged for a closer look

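In 66 groups of 5 values (ratio, treated level and control level of each gene in each group), 4 held a value whose gap to its nearest neighbour exceeded 0.71 of the group's range. Chance flags about 1 in 20 groups, so about this number would be flagged by chance. The log2 ratio of Smad3 on LOAD 3 was -0.21, with the nearest array at -0.04 and the highest at 0.02. The Smad1 level of the treated tibia on SHAM 3 was 8.14, with the others from 8.51 to 8.65. In the control tibia of SHAM 5 the Smad2 level was 7.17, with the others from 7.64 to 7.83, and the Smad4 level was 9.99, with the others from 9.70 to 9.77.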

How the results depend on the processing

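The median log2 ratio of the 11 genes was -0.03 in LOAD, 0.02 in SHAM and -0.05 for the difference. Without normalization these medians were -0.20, -0.41 and 0.17, and at a false discovery rate of 20% there were 9 genes in LOAD, 2 between LOAD and SHAM and 0 in SHAM; the cause was not tested. With each replicate left out in turn, the medians ran from -0.023 to 0.0088 in LOAD (0.0088 without LOAD replicate 3), from -0.03 to 0.09 in SHAM and from -0.08 to 0.02 for the difference, the number of genes passing was 0 in LOAD, SHAM and LOAD versus SHAM, and that between the contra lateral controls ran from 0 to 5, with 5 without LOAD replicate 3. The replicate number as a block left 0 genes between LOAD and SHAM and gave 17 between the controls, and Tgfbr3 kept its difference of -0.81 there. With the mean of each group taken off, ratios of LOAD and SHAM arrays with the same number correlated between -0.40 and 0.07. On the arrays numbered 4 and 5 the treated tibia carried different dyes in LOAD and SHAM, so that these values cannot decide on a pairing there. The numbers were not taken to pair rats. Of 942 values of single genes under the alternatives, 109 had another sign and 21 moved by over 1 SD, 19 of them without normalization and 2 in a fit, chosen after seeing the data, that combined a dye term with the exchange of the dyes of LOAD 2, where Smad2 was at 0.13 and Tgfbr3 at -0.21 in LOAD. The exchange alone changed 11 of 33 signs. In fits also chosen after seeing the data, 577 genes had a dye coefficient past a false discovery rate of 20%, Bmp2, Bmp3, Bmp4 and Tgfbr3 among them, with the exchange, and without both arrays numbered 4 there were 6, none of the 11 among them. Signals near background limit Inhba, and Tgfbr1 and Tgfbr3 on LOAD arrays.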
